A study of Homo sapiens with 12 samples.

Results

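Receptor chains for cytokines of the interleukin-20 and interleukin-1 families were described in T47D-MTVL cells, a human breast cancer line derived from T47D that carries an integrated mouse mammary tumor virus promoter. The set holds 9 genes, IL20RA, IL20RB, IL10RB, IL22RA1, IL1R1, IL1R2, IL1RAP, IL1RL1 and IL17RB, of 18417 genes named by a probe set of their own. The genes were chosen by name, with earlier results of these data known, the hormone response in control siRNA cells among them. The values of that response are therefore given below as a description without a test. The tests in cells with the other siRNA, of the same line, are not wholly free of this choice. Each gene had 1 probe set, and all 9 were followed on every array.

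Cells received either a control siRNA, here siCt, or one directed at the chromatin remodeler CHD8, here siCHD8. They were kept for 48 h without serum and then exposed for 6 h to 10 nM of the synthetic progestin R5020 or to ethanol (EtOH), its vehicle. Total RNA of each of the 4 conditions was measured on 3 Affymetrix Human Gene 1.0 ST arrays, which the labels name as biological replicates. The comparisons ask whether the progestin changes their RNA and whether that change differs when CHD8 is depleted. All groups come from 1 cell line, and the knockdown rests on 1 siRNA.

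Cytokines of the interleukin-20 family signal through pairs of class II receptor chains. IL20RA with IL20RB binds IL-19, IL-20 and IL-24. IL22RA1 joins IL20RB for IL-20 and IL-24 or the broadly used chain IL10RB for IL-22, while IL20RA with IL10RB forms the receptor of IL-26. These receptors act through the Janus kinases JAK1 and TYK2 and mainly through STAT3, and they are best known from epithelia. In the interleukin-1 family, IL1R1 binds IL-1 and recruits the accessory chain IL1RAP, and the complex signals through MYD88, IRAK kinases and TRAF6 to NF-kB. IL1R2 is a decoy receptor without a signalling domain, IL1RL1 (ST2) is the receptor of IL-33, and IL17RB pairs with IL17RA to bind IL-25.

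CHD8, the target of the siRNA, was at 66.9% of siCt in siCHD8 with vehicle and at 65.3% with R5020, and its siCHD8 arrays lay below the siCt arrays with either treatment (adjusted p = 0.0711 and 0.0627, limma). R5020 itself lowered CHD8, to 74.5% of vehicle in siCt and to 72.7% in siCHD8 (adjusted p = 0.0349 and 0.0258, limma). Arrays of one condition correlated at 0.989 to 0.996 and arrays of different conditions at 0.976 to 0.994 over the probe sets, with siCt EtOH replicate 3 the array least like its own replicates. All 9 luminal epithelial markers had means above the median of all probe sets (6.95 to 11.07 on the log2 scale, against a median of 3.80). Of 7 fibroblast markers 6 lay below it, with COL1A1 at 5.48, and of 8 blood and endothelial markers 7 lay below it, with CD68 at 4.26. PTPRC, which defines blood cells, was at 1.16.

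With the CHD8 siRNA, R5020 raised 1 of the 9 receptor chains, IL20RA, and lowered 1, IL1R1, at an adjusted p under 0.05 in limma. The other 7 did not pass the test. Over all 21214 probe sets tested, 6.04% were called higher and 5.43% lower in this comparison, so the count itself is not a result about these genes. The median log2 change of the 9 genes was -0.08, against -0.02 over all probe sets. RNA was measured from whole cultures, in which fewer cells carrying a transcript and less of it per cell cannot be told apart.

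IL20RA encodes the alpha chain of the IL-20 receptor. In siCHD8 cells its log2 intensity was 5.15, 5.10 and 4.79 on the vehicle arrays and 8.30, 8.18 and 8.13 on the R5020 arrays. The groups were separated by a wide gap, and the spread within the R5020 arrays was small. The log2 change was 3.19 (SE 0.19, 95% interval 2.77 to 3.60, adjusted p = 3.4e-08 from limma), or 9.10-fold, and it ranked 4 among the 19460 probe sets with a single gene symbol. In siCt cells the vehicle arrays read 4.77, 5.06 and 5.79 and the R5020 arrays 8.57, 8.58 and 8.50. The third vehicle array was the highest of its group, yet it stayed well below every hormone array. The siCt change, given as a description, was 3.34 (SE 0.19), also at rank 4, and was 3.63 without that array.

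RefSeq lists 2 start sites for IL20RA on the minus strand of chromosome 6. The 250 bases before each of them are shown because this gene had the larger of the changes and because R5020 acts through a DNA-binding steroid receptor. The letters searched, on both strands, were AGAACA, the hexamer contacted by a single steroid receptor monomer, and TGACTCA, the AP-1 site, and matches are printed in capitals.
IL20RA, upstream start, chr6:137044966-137045215, minus strand, GRCh38.p14: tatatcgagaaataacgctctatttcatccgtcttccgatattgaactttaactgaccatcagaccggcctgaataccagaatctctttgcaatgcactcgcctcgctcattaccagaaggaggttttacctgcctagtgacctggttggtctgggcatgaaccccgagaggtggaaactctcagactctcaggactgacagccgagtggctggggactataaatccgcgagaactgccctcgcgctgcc
IL20RA, downstream start, chr6:137044275-137044524, minus strand, GRCh38.p14: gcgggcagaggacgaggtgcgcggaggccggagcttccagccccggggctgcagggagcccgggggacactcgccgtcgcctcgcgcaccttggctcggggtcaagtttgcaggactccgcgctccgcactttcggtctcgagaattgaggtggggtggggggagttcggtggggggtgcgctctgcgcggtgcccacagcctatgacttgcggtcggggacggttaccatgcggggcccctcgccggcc
Neither window held AGAACA or TGACTCA on either strand. The windows differ in base composition, with 51.2% G and C before the upstream start and 72% before the downstream one, against a median of 58% over 35116 such windows. AGAACA occurred in 12.4% of those windows and TGACTCA in 4.2%, and among the 15 windows of the 9 receptor genes 1 held the former and none the latter. These counts describe the letters of the windows only, and sites farther from the gene were not searched.

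The other chains that pair with IL20RA or share its ligands did not pass the test. IL20RB, the beta chain that IL20RA needs for IL-19, IL-20 and IL-24, read 2.26, 2.37 and 2.47 with vehicle and 2.45, 2.49 and 2.67 with R5020 in siCHD8 cells. The groups overlapped by a narrow margin, and the log2 change was 0.18 (SE 0.22, adjusted p = 0.734 from limma). Its mean over the 12 arrays, 2.39, was below the median of all probe sets, in the range where probe sets carry little signal. In siCt cells the vehicle arrays read 2.17, 2.36 and 2.52, and the R5020 arrays, which scattered most of all the groups, read 2.48, 2.85 and 1.63.

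IL10RB, the partner shared by the receptors for IL-10, IL-22, IL-26 and type III interferons, was well measured, with a mean of 6.59 and a range of only 0.357 over the 12 arrays. In siCHD8 cells it read 6.74, 6.55 and 6.70 with vehicle and 6.38, 6.43 and 6.46 with R5020. All hormone arrays lay below the vehicle arrays, but the change of -0.24 (SE 0.10, 95% interval -0.46 to -0.02) had an adjusted p of 0.171 in limma. In siCt cells it read 6.74, 6.67 and 6.66 with vehicle and 6.56, 6.50 and 6.74 with R5020, which overlapped.

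IL22RA1, the partner of IL10RB for IL-22 and of IL20RB for IL-20 and IL-24, read 2.93, 3.09 and 3.69 with vehicle and 2.95, 3.10 and 3.04 with R5020 in siCHD8 cells. The hormone arrays lay inside the range of the vehicle arrays (log2 change -0.20, SE 0.20, adjusted p = 0.64 from limma). In siCt cells it read 3.22, 2.93 and 3.70 with vehicle and 2.94, 3.11 and 2.74 with R5020, again overlapping.

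**Figure D1:**
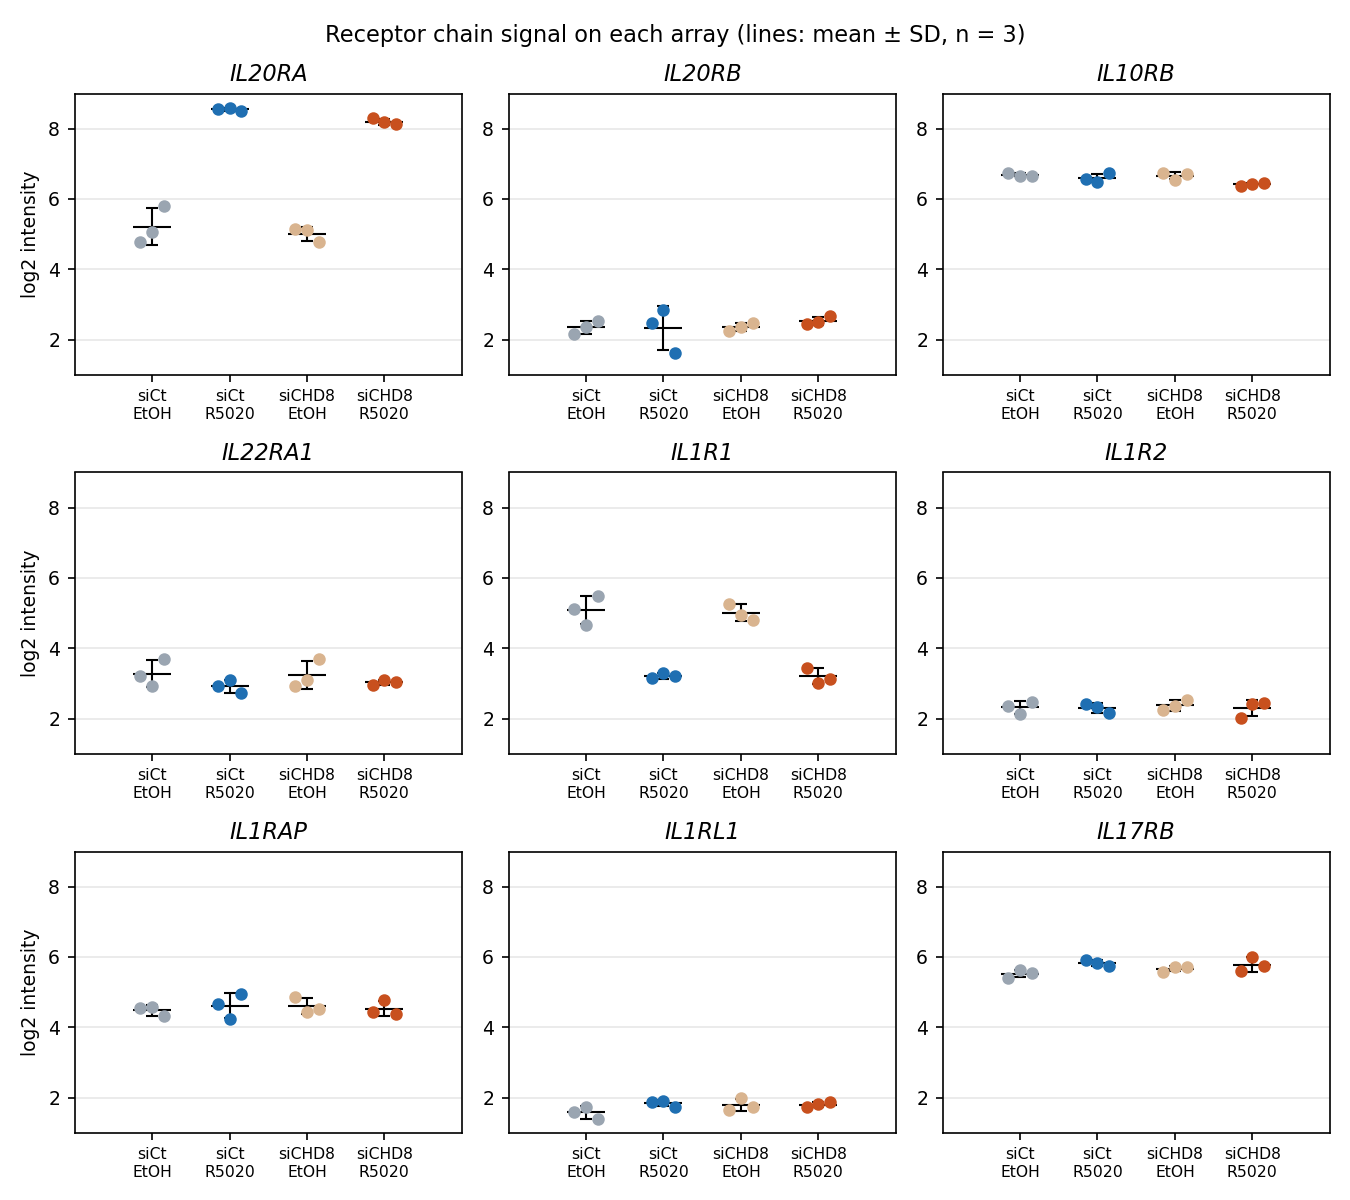
Log2 intensity of the 9 receptor chains (vertical axis) on each array of the 4 conditions (horizontal axis), with 1 point per array and black lines for the mean and SD of 3 arrays. IL20RA rises from between 4.77 and 5.79 with vehicle to between 8.13 and 8.58 with R5020, and IL1R1 falls from between 4.66 and 5.48 to between 3.01 and 3.45. The other 7 panels show no shift of that size, though IL20RB scatters from 1.63 to 2.85 and IL22RA1 from 2.74 to 3.70.

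IL1R1 encodes the signalling receptor of IL-1. In siCHD8 cells it read 5.27, 4.96 and 4.79 with vehicle and 3.45, 3.01 and 3.14 with R5020. No hormone array came near a vehicle array, and the log2 change was -1.81 (SE 0.18, 95% interval -2.20 to -1.42, adjusted p = 6.07e-06 from limma), a 3.50-fold lower signal. It ranked 14 from the lowest among 19460 probe sets. With R5020 the signal lay below the median of all probe sets, and with vehicle above it. In siCt cells it read 5.13, 4.66 and 5.48 with vehicle and 3.14, 3.30 and 3.21 with R5020. The siCt change, as a description, was -1.87 (SE 0.18), at rank 10 from the lowest.

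RefSeq gives 4 start sites for IL1R1 on the plus strand of chromosome 2. The window before the second of them was the only one of the 15 windows with a match, and it is shown for that reason.
IL1R1, second start, chr2:102141541-102141790, plus strand, GRCh38.p14: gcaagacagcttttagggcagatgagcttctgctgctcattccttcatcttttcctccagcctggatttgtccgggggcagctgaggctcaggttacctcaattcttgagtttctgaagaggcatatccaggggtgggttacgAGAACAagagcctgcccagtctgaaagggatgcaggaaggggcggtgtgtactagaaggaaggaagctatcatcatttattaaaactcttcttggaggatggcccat
AGAACA, in capitals, begins 107 bases before the start on the plus strand. The other 3 windows of IL1R1 held neither sequence. Since 12.4% of all windows held AGAACA, 1 match in 15 is a description and not evidence of binding.

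IL1RAP, the accessory chain without which IL1R1 does not signal, read 4.87, 4.43 and 4.53 with vehicle and 4.44, 4.77 and 4.37 with R5020 in siCHD8 cells. The arrays of the conditions were interleaved, and the log2 change was -0.09 (SE 0.18, 95% interval -0.46 to 0.29, adjusted p = 0.853 from limma). In siCt cells it read 4.56, 4.59 and 4.31 with vehicle and 4.67, 4.23 and 4.95 with R5020.

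The decoy receptor IL1R2 read 2.24, 2.36 and 2.53 with vehicle and 2.02, 2.42 and 2.43 with R5020 in siCHD8 cells, and IL1RL1, the IL-33 receptor, 1.65, 1.98 and 1.73 with vehicle and 1.72, 1.81 and 1.88 with R5020. Both lay below the median of all probe sets in every condition and neither passed the test (log2 changes -0.08, SE 0.14, and 0.01, SE 0.12, with adjusted p = 0.816 and 0.969 from limma). In siCt cells IL1R2 read 2.36, 2.12 and 2.49 with vehicle and 2.43, 2.33 and 2.16 with R5020 (-0.02, SE 0.14, as a description). IL1RL1 there read 1.60, 1.74 and 1.39 with vehicle and 1.87, 1.92 and 1.74 with R5020, a change of 0.27 (SE 0.12, as a description) with arrays that just overlapped.

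IL17RB, a chain of the IL-25 receptor, was clearly above the median with a mean of 5.70. It read 5.58, 5.73 and 5.71 with vehicle and 5.59, 6.00 and 5.76 with R5020 in siCHD8 cells, which overlapped (log2 change 0.11, SE 0.12, adjusted p = 0.682 from limma). In siCt cells it read 5.41, 5.62 and 5.54 with vehicle and 5.92, 5.82 and 5.74 with R5020, without overlap (0.30, SE 0.12, as a description).

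Arrays were also counted without a model. With siCHD8, 1 receptor chain had all hormone arrays above the vehicle arrays (IL20RA) and 2 had them below (IL1R1 and IL10RB), where 13% and 14.2% of all probe sets were separated in those directions. These counts are near those shares and are no result about the receptor chains. With siCt, 2 were separated upward (IL20RA and IL17RB) and 1 downward (IL1R1), against 15.3% and 18.7% of all probe sets, from which nothing is read because this response was known when the genes were chosen.

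**Figure D2:**
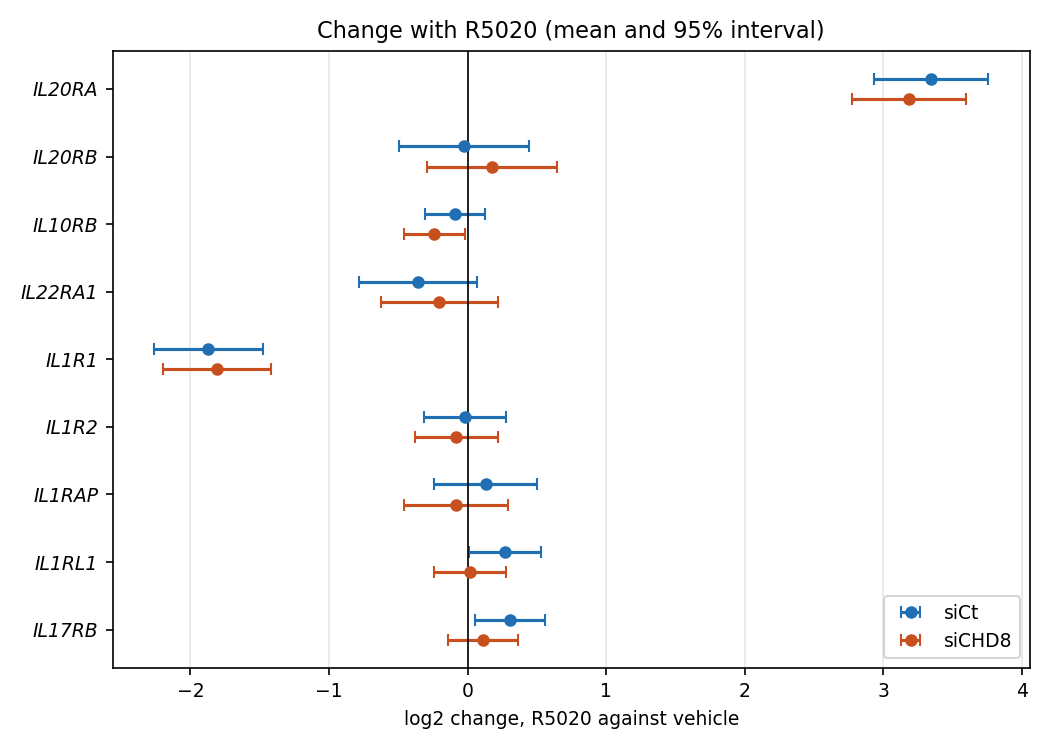
Log2 change with R5020 against vehicle (horizontal axis) for each receptor chain (vertical axis), in siCt cells and in siCHD8 cells. Points are means of 3 arrays against 3 and bars are 95% intervals from the limma fit; IL20RA lies near 3 and IL1R1 near -2 with either siRNA, and the siCHD8 intervals of 6 of the other 7 genes include 0, IL10RB being the exception at -0.46 to -0.02.

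The response of the receptor chains was then compared between the siRNAs. For IL20RA the siCHD8 response was 0.16 below the siCt response on the log2 scale (difference -0.16, SE 0.27, 95% interval -0.74 to 0.43). For IL1R1 the difference was 0.06 (SE 0.26, 95% interval -0.49 to 0.61). Over the 9 genes the differences ran from -0.25 for IL1RL1 (SE 0.17) to 0.20 for IL20RB (SE 0.31). These are descriptions, since they contain the siCt response. Over all 21214 probe sets 0 passed an adjusted p of 0.05 in limma for this difference (0%), while 9.56% had an unadjusted p under 0.05. The interval for IL20RA includes a response more than 1.5-fold smaller with siCHD8, so equal responses are not shown.

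The knockdown itself moved none of the 9 receptor chains past the test, either with vehicle or with R5020. These comparisons share their siCt arrays with the response that was known when the genes were chosen. With vehicle, 0.113% of all probe sets were called higher and 0.179% lower in siCHD8. With R5020 the shares were 0.033% and 0.156%. At an unadjusted p under 0.05 the count was also 0 of 9 with either treatment, where 12.1% of all probe sets passed with vehicle and 13.9% with R5020.

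IL20RA with R5020 was 8.30, 8.18 and 8.13 in siCHD8 and 8.57, 8.58 and 8.50 in siCt. The knockdown arrays thus all lay below the control arrays, and the log2 difference was -0.35 (SE 0.19, 95% interval -0.76 to 0.06, adjusted p = 0.441 from limma). The SE of that fit is shared by all 4 conditions, and the vehicle arrays of IL20RA scattered more (SD 0.53 in siCt) than its hormone arrays (SD 0.05 in siCt and 0.09 in siCHD8). In a fit of the R5020 arrays alone the difference had an SE of 0.09 and an adjusted p of 0.0761. Over all alternatives the adjusted p ran from 0.0761 to 0.667, so the difference was not called under any of them.

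IL10RB with R5020 was likewise lower on every siCHD8 array (6.38 to 6.46) than on any siCt array (6.50 to 6.74), with a difference of -0.18 (SE 0.10, adjusted p = 0.457 from limma). No other receptor chain was separated with R5020, and none was with vehicle. Separation of this kind, in either direction, was found in 27.6% of all probe sets with R5020 and in 13.7% with vehicle. For IL1R1 the knockdown differences were -0.08 with vehicle (95% interval -0.47 to 0.31) and -0.02 with R5020 (95% interval -0.41 to 0.37).

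**Figure D3:**
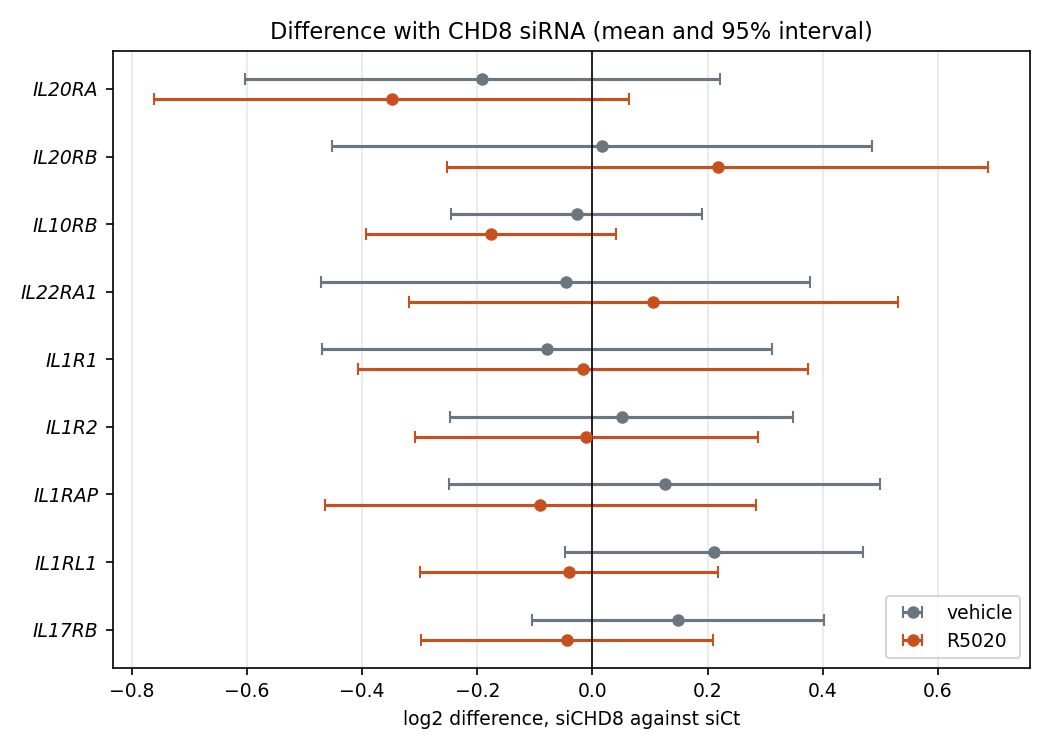
Log2 difference between siCHD8 and siCt (horizontal axis) for each receptor chain (vertical axis), with vehicle and with R5020. Points are means of 3 arrays against 3 and bars are 95% intervals from the limma fit; each of the 18 intervals includes 0, and the lowest point is IL20RA with R5020 at -0.35.

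Ligands of the receptors were examined from lists of known family members. Of 9 ligands of the IL-20 family and its relatives (IL-10, IL-22, IL-26 and type III interferons included), 0 were called with R5020 in siCHD8 cells at an adjusted p under 0.05 in limma, with log2 changes from -0.16 to 0.41, and 1 had an unadjusted p under 0.05. IL19, IL20, IL24, IL22 and IL26, which bind the receptors above, had means of 1.75, 1.79, 2.14, 1.75 and 1.36, all below the median of all probe sets. Their changes were -0.16, -0.04, -0.10, -0.11 and -0.00254 with SEs between 0.10 and 0.16. No ligand of IL20RA thus had a mean signal above that median. The median change of the list was -0.04, against -0.02 over all probe sets. With 6.04% of all probe sets called higher and 5.43% lower, 0 calls among 9 genes is no result about the list.

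Of 11 ligands of the IL-1 family, 1 fell and none rose, where 5.43% of all probe sets were called lower and 6.04% higher. The count is thus no result about the list. The gene that fell was IL18, an inflammasome-processed cytokine, which read 5.80, 5.18 and 5.91 with vehicle and 4.13, 4.45 and 4.21 with R5020 in siCHD8 cells. The groups did not overlap, and the log2 change was -1.37 (SE 0.21, adjusted p = 0.000331 from limma). In siCt cells the change was -0.56 (SE 0.21), and the highest R5020 array, at 5.08, overlapped the vehicle arrays. The difference between these responses was not called. The other 10 ligands lay below the median of all probe sets. Among them IL1A and IL1B, the agonists of IL1R1, had means of 1.58 and 1.62 and changes of -0.01 and 0.31 (adjusted p = 0.961 and 0.145 from limma), and IL33, the ligand of IL1RL1, had a mean of 1.39 and a change of -0.02. IL25, a ligand of IL17RB, had a mean of 2.61 and a change of 0.13 (adjusted p = 0.76 from limma). The list median was -0.02.

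Among 8 other class II receptor genes, 1 rose and none fell, where 6.04% of all probe sets were called higher and 5.43% lower. F3, tissue factor, which is a structural relative of these receptors and starts coagulation, read 3.70, 4.14 and 3.47 with vehicle and 5.89, 6.21 and 5.90 with R5020 in siCHD8 cells. The change was 2.23 (SE 0.19, adjusted p = 1.18e-06 from limma), against 2.06 in siCt. The interferon and IL-10 receptor chains of the list were not called, with changes between -0.33 and 0.26. Of 6 other IL-1 receptor family genes, SIGIRR, an inhibitory member, fell from 6.52, 6.46 and 6.45 to 6.06, 6.01 and 6.01 (log2 change -0.45, SE 0.10, adjusted p = 0.00489 from limma). The other 5, among them both chains of the IL-18 receptor (IL18R1 at 1.48 and IL18RAP at 1.66), lay below the median and were not called. The list medians were -0.07 and -0.22. With 1 call in each of these short lists, neither count is a result about its list.

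In the IL-17 family, 1 of 10 other genes fell and none rose. Over all probe sets 5.43% were called lower and 6.04% higher, so the count is no result about the list. IL17RE, the receptor chain for IL-17C, read 6.39, 6.24 and 6.43 with vehicle and 5.73, 5.50 and 5.63 with R5020 in siCHD8 cells (log2 change -0.73, SE 0.11, adjusted p = 0.000321 from limma). IL17RA, the partner of IL17RB, had a change of 0.20 (SE 0.12, adjusted p = 0.39 from limma) at a mean of 6.82. The list median was -0.03.

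Of 12 measured genes of the JAK-STAT route, 5 rose and 1 fell, where 6.04% of all probe sets were called higher and 5.43% lower. The list median was 0.33, against -0.02 over all probe sets. The list was chosen with earlier results of these data known, so this count and median are a description. Of its genes, the IL-20 receptors act through JAK1, TYK2 and mainly STAT3. JAK2, the kinase of the prolactin and growth hormone receptors, read 3.85, 3.39 and 3.26 with vehicle and 5.29, 5.20 and 5.35 with R5020 in siCHD8 cells (log2 change 1.78, SE 0.14, adjusted p = 3.77e-07 from limma). STAT5A, a transcription factor downstream of the prolactin receptor, read 3.87, 3.78 and 3.39 with vehicle and 5.71, 5.56 and 5.77 with R5020 (2.00, SE 0.17, adjusted p = 8.18e-07). Both were clearly separated.

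STAT3, the main factor downstream of the IL-20 receptors, rose by 0.67 (SE 0.10, adjusted p = 0.000369 from limma) from 9.69, 9.74 and 9.69 to 10.32, 10.44 and 10.35. STAT5B rose by 0.59 (SE 0.12, adjusted p = 0.00372) and TYK2, a kinase of the IL-20 receptors, by 0.53 (SE 0.15, adjusted p = 0.0278). CISH, a feedback inhibitor of STAT5, fell by 0.45 (SE 0.13, adjusted p = 0.0415). JAK1, the other kinase of these receptors, had a change of 0.22 (adjusted p = 0.257), and the feedback inhibitor SOCS3 one of -0.24 (adjusted p = 0.42). The calls of TYK2 and CISH were lost under some of the alternatives. Without siCHD8 vehicle replicate 1 the change of TYK2 was 0.33 (adjusted p = 0.0842 from limma). In siCt cells TYK2 had a change of 0.12 (SE 0.15, as a description), with arrays that overlapped.

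Of 11 measured genes known to respond to IL-20 or IL-22 in epithelia, 0 were called at an adjusted p under 0.05 in limma, with changes from -0.53 for FUT2 to 0.14 for MUC1 and a list median of -0.01, and 1 had an unadjusted p under 0.05. Of the 11, 8 lay below the median of all probe sets, S100A7 and REG3A among them. With 6.04% of all probe sets called higher and 5.43% lower, 0 calls among 11 genes is no result about the list.

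In a list of 17 measured transducers, mostly of the IL-1 receptor and NF-kB route, 1 rose and 1 fell. This is near the 6.04% and 5.43% called over all probe sets and so no result about the list. TRAF3IP2, the adaptor Act1 of the IL-17 receptors, read 6.01, 5.80 and 5.92 with vehicle and 6.42, 6.47 and 6.56 with R5020 in siCHD8 cells (log2 change 0.58, SE 0.11, adjusted p = 0.00205 from limma). TAB3, which links TRAF6 to the kinase MAP3K7, fell by 0.46 (SE 0.12, adjusted p = 0.016). MYD88 and TRAF6, the core adaptors of IL1R1, had changes of -0.09 and 0.03 at means of 7.57 and 6.66 and were not called. IRAK4 and TAB1 were not analysed here, and the list median was -0.06.

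Of 19 measured genes known as NF-kB targets, 4 rose and 1 fell, against the same shares over all probe sets. This list too was chosen with earlier results of these data known, so its count is a description. NFKBIA, the inhibitor of NF-kB, read 7.86, 7.84 and 7.65 with vehicle and 9.02, 9.10 and 9.02 with R5020 in siCHD8 cells (log2 change 1.27, SE 0.12, adjusted p = 2.64e-06 from limma). CEBPD, a transcription factor of the acute phase, read 6.66, 6.90 and 6.47 with vehicle and 7.80, 7.94 and 7.96 with R5020 (1.22, SE 0.12, adjusted p = 4.84e-06). ZC3H12A, a ribonuclease that degrades cytokine transcripts, rose by 0.59 and TNIP1, a partner of TNFAIP3, by 0.50, while NFKBIZ, a co-activator of NF-kB targets, fell by 0.40 (adjusted p = 0.00518, 0.0489 and 0.0453 from limma). The calls of TNIP1 and NFKBIZ were lost under some of the alternatives, as was that of TAB3.

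Other inhibitors of the pathway in the list, TNFAIP3 and NFKBIE, had changes of 0.35 and 0.25 and were not called (adjusted p = 0.339 and 0.395 from limma). The 7 cytokine and chemokine targets were not called and lay below the median of all probe sets. Their changes ran from -0.40 for CCL20 and -0.39 for CXCL3 (adjusted p = 0.152 and 0.123), which were called under 3 and 1 of 22 alternatives, to 0.14 for IL6. The list median was -0.02, that of all probe sets. Of the 103 genes of these 9 lists, 0 were called by limma in either knockdown comparison, with 14 at an unadjusted p under 0.05 with vehicle and 10 with R5020, where 12.1% and 13.9% of all probe sets passed that limit. BIRC3 and, in the list of IL-20 and IL-22 targets, DEFB4A were not analysed here.

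**Figure D4:**
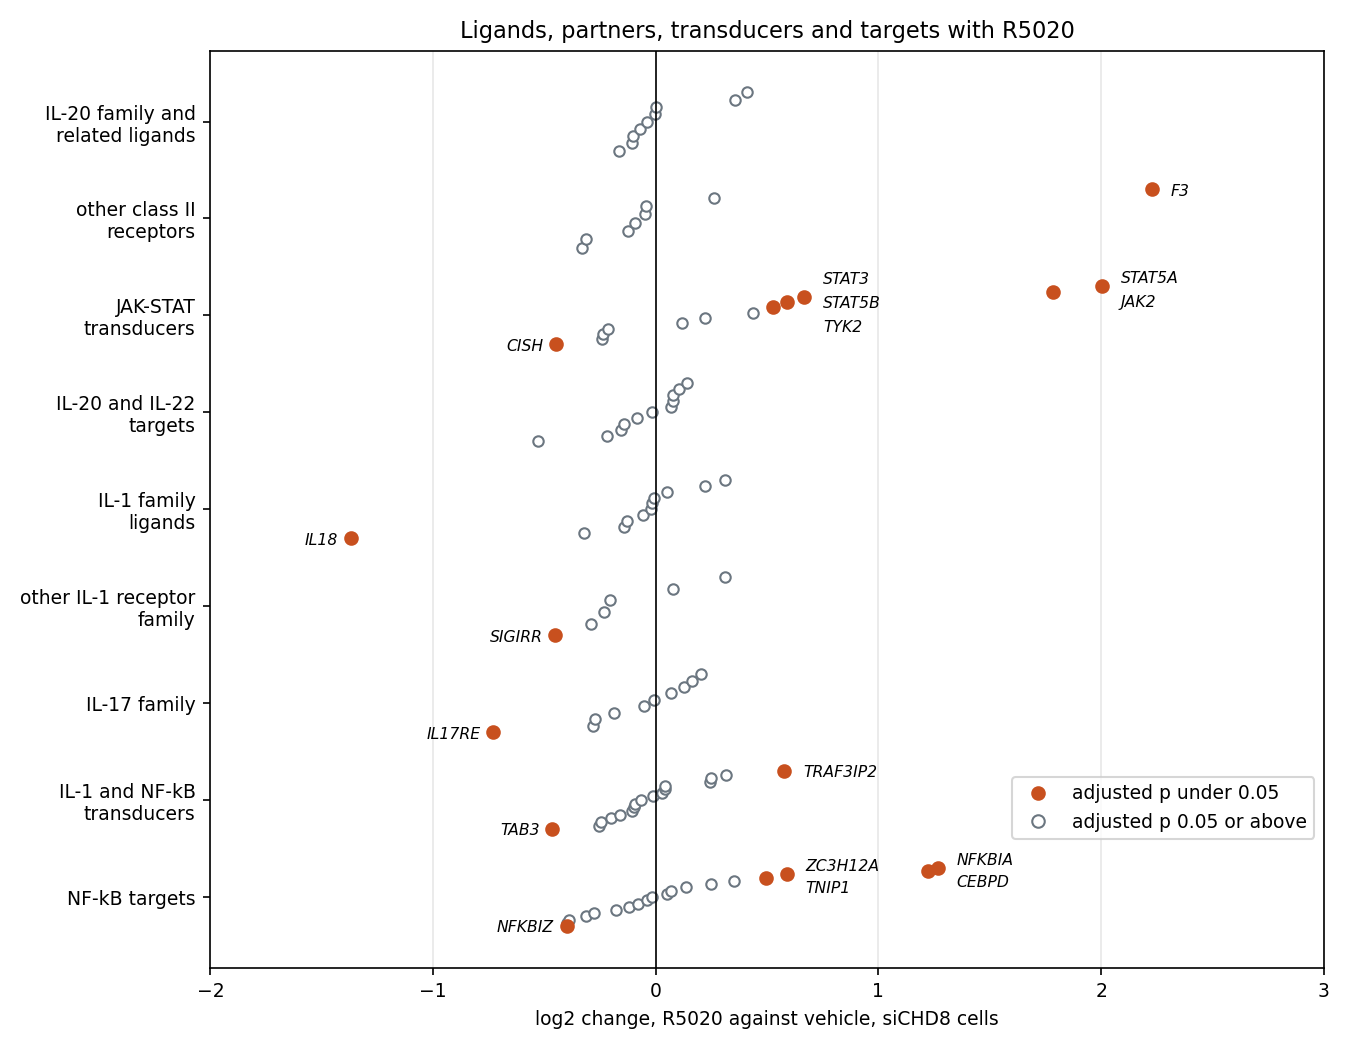
Log2 change with R5020 against vehicle in siCHD8 cells (horizontal axis) for the measured genes of 9 lists (vertical axis), 1 point per gene. Filled points passed an adjusted p of 0.05 in limma and carry the gene's name; they include F3 at 2.23, STAT5A at 2.00 and JAK2 at 1.78 on the right and IL18 at -1.37 on the left.

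Most of the luminal markers moved with the hormone as well. Of the 9 luminal markers 6 fell and none rose in siCHD8 cells, where 5.43% of all probe sets were called lower and 6.04% higher. The list median was -0.56, against -0.02 over all probe sets. The list was chosen with earlier results of these data known, so this count is a description. Those that fell included the progesterone receptor gene PGR (-1.50, SE 0.11, adjusted p = 2.09e-07 from limma), the pioneer factor FOXA1 (-1.41, SE 0.12, adjusted p = 1.22e-06) and the estrogen receptor gene ESR1 (-0.91, SE 0.12, adjusted p = 8.04e-05). KRT18 fell by 0.67, GATA3 by 0.56 and CDH1 by 0.36, the call of CDH1 being lost under some of the alternatives. KRT8 and EPCAM were not called, with changes of -0.19 and -0.17 (adjusted p = 0.333 and 0.375 from limma). KRT19 went the other way, by 0.30 (adjusted p = 0.131 from limma), with all R5020 arrays above the vehicle arrays. It was called under 1 of 23 alternatives. The fibroblast and the blood and endothelial markers had 0 calls in limma, with 1 and 0 at an unadjusted p under 0.05. The part of these markers in the changes of IL20RA and IL1R1 was not tested.

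The probe sets most like IL20RA over the 12 arrays, by Pearson's r, were those of CREB3L2 (r = 0.998), PLCG1 (0.998), NFKBIA (0.997), STK24 (0.995) and MYO10 (0.995). Each of these genes was called with R5020 in siCHD8 cells, and all points share the same arrays. With the condition means removed, r was between 0.784 for STK24 and 0.93 for NFKBIA. The 5 genes were picked by their r over these same arrays, so high values here are partly fixed by the choice. In siCt with vehicle, for example, replicate 3 was the highest array for IL20RA (5.79, against 4.77 and 5.06) and for NFKBIA (8.17, against 7.75 and 7.84). The changes of the 5 genes with R5020 in siCHD8 cells lay between 1.16 and 1.71, below that of IL20RA.

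Most like IL1R1 were TMEM40 (r = 0.988), SLC52A3 (0.988), TENM3 (0.985), SLC29A1 (0.980) and NDST4 (0.978), with R5020 changes from -1.87 to -0.84 in siCHD8 cells. Most like IL10RB were PLA2G7 (0.932), AGK (0.924) and ARHGAP15 (0.912), and most like IL17RB were ATP13A4 (0.914), SNORD116-25 (0.864) and SNX29 (0.850). These coefficients over 12 arrays are descriptions.

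Several receptor genes stand next to each other in the genome. In the RefSeq gene order of chromosome 2, IL1R2, IL1R1, IL1RL2, IL1RL1, IL18R1 and IL18RAP follow one another, and among these 6 IL1R1 was the one called with R5020 in siCHD8 cells. IL1RL2, the receptor of IL-36, had a change of 0.31 (SE 0.12, adjusted p = 0.108 from limma) and IL18R1 one of -0.29 (SE 0.10, adjusted p = 0.0837), both below the median of all probe sets.

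On chromosome 6, IL20RA is followed by IL22RA2, a soluble receptor that binds IL-22, and by the interferon gamma receptor gene IFNGR1. They had changes of -0.05 and 0.26 (adjusted p = 0.888 and 0.275 from limma), against 3.19 for IL20RA. On chromosome 21, IL10RB lies between the interferon receptor genes IFNAR2 and IFNAR1, followed by IFNGR2, with changes of -0.12, -0.33 and -0.31, none of them called. On chromosome 1, IL22RA1 lies beside IFNLR1, the receptor of type III interferons (-0.09, adjusted p = 0.748). Only cytokine receptor genes are described here among the neighbours. Some other nearby genes were called, such as GRHL3 (-0.86) and NIPAL3 (1.265) near IL22RA1 and CLDN1 (-1.29) near IL1RAP. Under some alternatives neighbouring receptor genes were called. IFNGR1 was called under 2 of 23 (adjusted p from 0.0301 to 0.611 over them, limma). IFNAR1 and IFNGR2 were called under 1 of 23 each, IL18R1 under 1 of 22 and IL1RL2 under 2 of 22.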

How the data were processed

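The authors extracted the scans of Affymetrix Human Gene 1.0 ST arrays, normalized them by RMA and deposited log2 intensities per probe set for 12 arrays; the sources used here do not give versions or filters. RMA equalizes the arrays and compresses changes of dim probe sets, and the table holds no detection calls. Of 33297 probe sets, 12083 had no gene symbol in the platform annotation and were left out, 19460 had 1 symbol and 1754 several; 21214 were tested. The 9 members matched RefSeq (GRCh38.p14) by Entrez ID, and none was named by a probe set with several symbols. No column of sample values was left unused.

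limma 3.58.1 (R 4.3.3) fitted 1 mean for each condition to the 12 arrays, with contrasts between conditions and moderated variances. P-values were adjusted by Benjamini-Hochberg over all 21214 tested probe sets, with calls at 0.05. The fit was tested on simulated data. Groups came from the labels, and the number of arrays limits the precision. A gene with several probe sets was given by the brightest. Members and lists were chosen with earlier results of these data known. The text names all members, of each list up to 6 called genes and uncalled sole ligands or partners, the most alike probe sets and neighbouring cytokine receptor genes, and other genes named were chosen after their values were seen. Alternatives covered scaling, filters, variance, weights, a replicate block, thresholds and each array left out. Promoter sequences are those of RefSeq. Some items of the lists are not reported here. Plots used matplotlib 3.10.9 and pandas 2.3.3 under Python 3.11.15.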

Additional observations from a re-analysis of the deposited data

How the results depend on the processing

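The counts of 1 receptor chain higher and 1 lower with R5020 in siCHD8 cells, and of 0 in both knockdown comparisons, were the same under all 23 alternative settings and under both other limits (an adjusted p under 0.01, or an unadjusted p under 0.01, each with a fold over 1.5). The siCHD8 change of IL20RA ranged from 3.07 to 3.26 and that of IL1R1 from -1.93 to -1.68, with the highest adjusted p at 2.77e-06 and 0.000135 in limma. Leaving out the dim probe sets removed IL20RB, IL22RA1, IL1R2 and IL1RL1, which then have no value. No member changed sign while called. Uncalled or untested values of the members changed sign 66 times, as small values do. A fit without the vehicle arrays siCHD8 replicate 1 and siCt replicate 3, chosen after seeing the data, changed no call of a member. Same-numbered arrays did not deviate together (4 of 18 pairs with r over 0.1, range -0.247 to 0.196), so the numbers were not taken as pairs; with a replicate block the siCHD8 change of IL20RA was 3.19 (adjusted p = 5.85e-07, limma) and that of IL1R1 -1.81 (adjusted p = 1.78e-05, limma). Each member is 1 probe set, so averaging its rows changed nothing.

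Of the 17 pathway genes called with R5020 in siCHD8 cells, 12 were called under every alternative and 5 were not: TAB3 was called under 20 of 23, TYK2 under 16, CISH under 13, TNIP1 under 11 and NFKBIZ under 8 of 22. The luminal marker CDH1 was called under 11 of 23. Of 86 uncalled pathway genes, 12 were called under at least 1 alternative. Over all probe sets, the calls with R5020 in siCHD8 cells numbered 2432, and between 2024 and 2911 with the settings that keep all arrays. The knockdown calls moved more, from 62 to between 0 and 169 with vehicle and from 40 to between 2 and 916 with R5020; the cause was not tested. With 3 arrays per condition, knockdown effects within the intervals given cannot be told from none.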
